A study of Mus musculus with 4 samples.

Results

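The 10 genes described here encode lamins, a lamin-binding membrane protein, abundant chromatin proteins and 1 lysosomal enzyme, all of them linked to cellular senescence: Lmnb1, Lmnb2, Lmna, Lbr, Hmga1, Hmga2, Hmgb1, Hmgb2, Cbx5 and Glb1. They are 10 of 21887 protein-coding genes and were chosen with earlier results of these data known. Their peaks of acetylated lysine 9 of histone H3 (H3K9ac), a mark of active promoters, were taken over each gene's RefSeq span and 10 kb on either side, a rule that uses no measured value. This gave 87 of the 103336 peaks listed with romidepsin and 19 of the 16419 peaks listed without it. The study mapped the mark by chromatin immunoprecipitation and sequencing in mouse bone marrow-derived MDSC (myeloid-derived suppressor cells, a mix of immature myeloid cells known for holding back T cells), which had been made senescent in vitro. One library was from cells under the CM condition plus romidepsin, an inhibitor of histone deacetylases, and the other from cells under CM alone. The labels do not expand CM and give no genotype, strain, age, dose or time. With 1 immunoprecipitated library per condition, values stand side by side with no replicate error and no test between conditions, and the input libraries were not analysed here.

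Lamins are the filament proteins that line the inside of the nuclear membrane, and the lamin B receptor ties heterochromatin to that membrane. Loss of lamin B1 is widely used as a sign of senescence, and loss of the lamin B receptor has been reported in some senescent cells. HMGA proteins and heterochromatin protein 1 gather in the condensed chromatin foci that some senescent cells form, HMGB proteins bend DNA and can leave the nucleus of senescent cells, and Glb1 encodes the lysosomal beta-galactosidase behind the usual senescence stain. Acetylation of histone H3 is removed by the enzymes that romidepsin blocks.

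All 10 genes had an H3K9ac peak at a start site with romidepsin, and 9 of 10 had one in CM, where Hmga2 had none. A start site was read from RefSeq promoter records for 9 of the genes, and a peak was counted there if it came within 1 kb of it. Lmnb1 has no such record among those used, so both ends of its span were taken. Over all protein-coding genes, 63.0% had a start site peak with romidepsin and 50.2% in CM. A peak anywhere in the span plus 10 kb was present at 10 of 10 genes with romidepsin and at 9 of 10 in CM, against 72.2% of all genes with romidepsin and 58.8% in CM. Of the 10 genes, 1 had a start site peak with romidepsin and not in CM, where the share over all genes was 12.9%.

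The cells' labelled type was checked on marker genes. Of 10 myeloid markers, 10 had a start site peak with romidepsin and 9 in CM, with Ly6g the exception. The romidepsin peak at Ly6g was short and of low fold (612 bp, fold 2.49). Of 6 markers of other cell types, 4 had one with romidepsin and 1 in CM. Over all protein-coding genes the shares were 63.0% with romidepsin and 50.2% in CM. With romidepsin the count of these 6 was thus near the share of genes in general, and that list does not set them apart. Epcam had a start site peak in both lists, and Cd3e and Alb had none in either. Ranked by −log10 q and limited to equal numbers of strongest peaks, 2 of these 6 had one with romidepsin. The median fold enrichment, which the authors' caller gives as the mean over each broad peak against its own local background, was 2.64 in the romidepsin list and 5.04 in the CM list. Folds are therefore read only within a list. Read depth is not known, and sonication left fragments of up to kilobase size, per the labels, which makes peak edges coarse. A deeper library also gives more and wider peaks, and with 1 library a condition that and the treatment cannot be told apart.

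**Figure D1:**
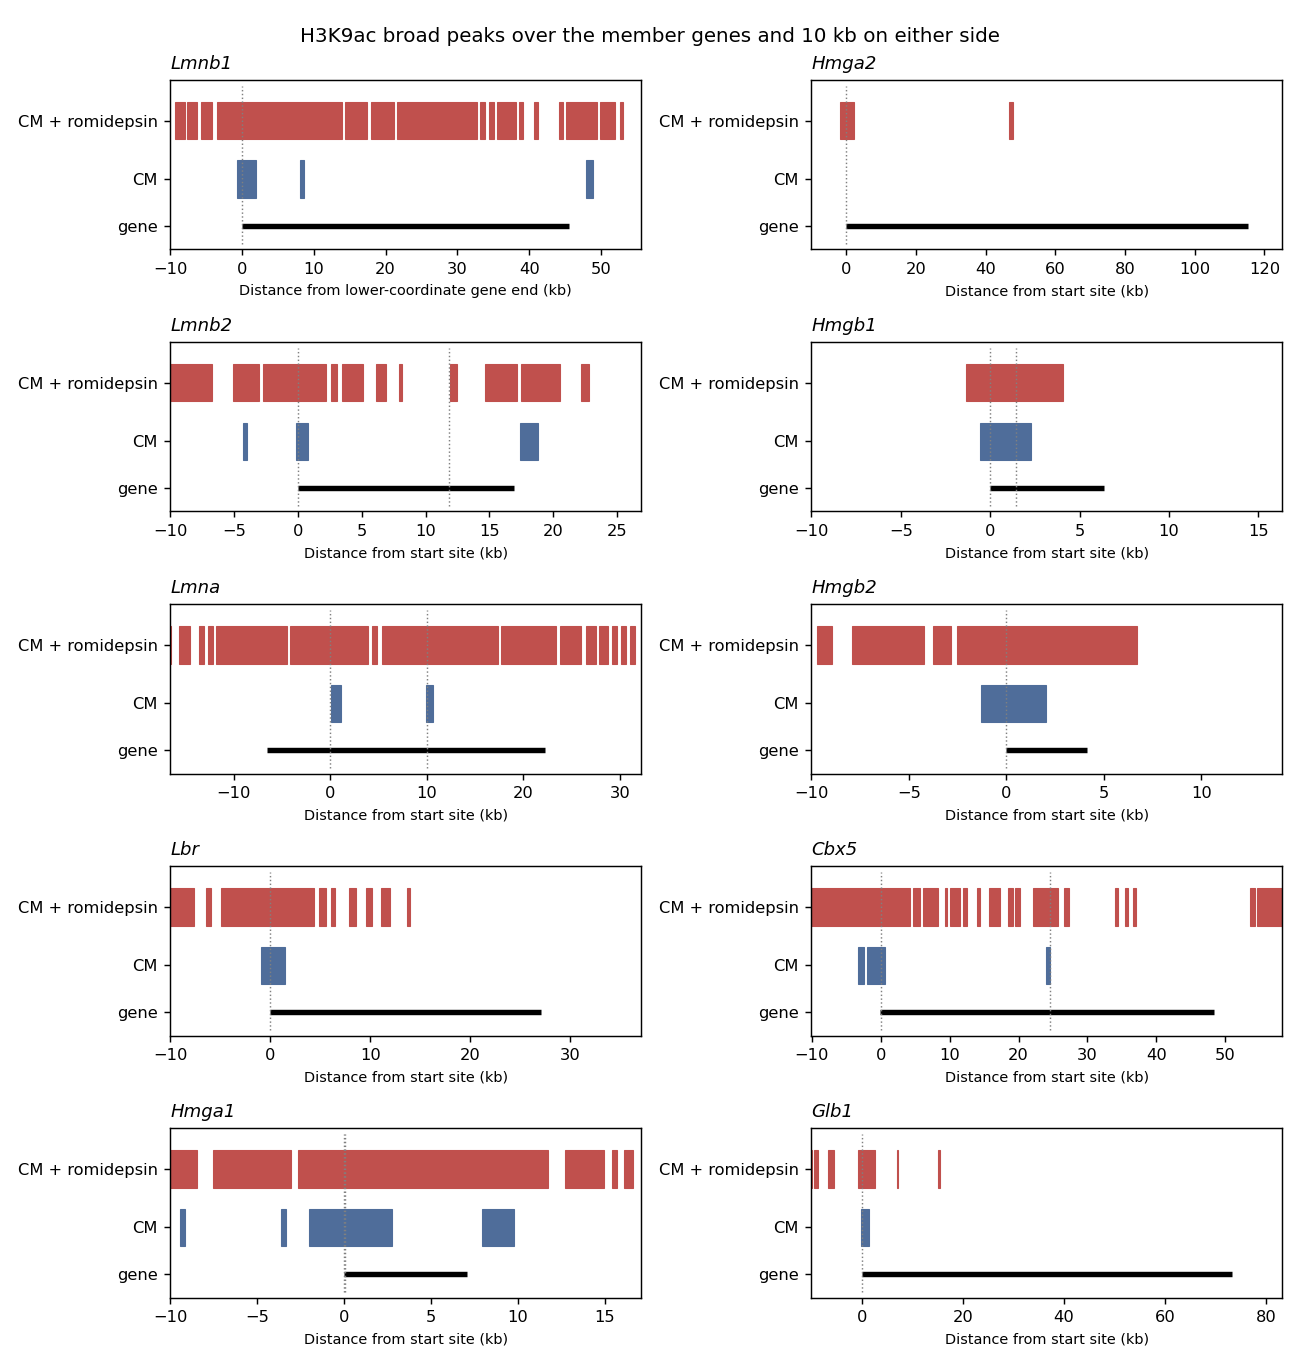
H3K9ac broad peaks over the 10 genes and 10 kb on either side. Red blocks are peaks in CM plus romidepsin, blue blocks peaks in CM, and the black bar is the RefSeq span. The x axis is the distance in kb from the most upstream start site recorded (for Lmnb1, from the gene end with the lower coordinate), in the direction of transcription where the strand is recorded, and dotted lines mark start sites. All 19 CM peaks lie over a romidepsin peak, and Hmga2 has no CM peak.

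Promoters of 4 of the genes are printed because they show the spread of sequence among these loci. Hmgb2 and Lbr had a start site peak in both lists, and Hmga2 had no CM peak. The upstream recorded Lmna promoter was almost without CpG and had a CM peak just downstream of its start site. The sequences are RefSeq's for GRCm38.p6, the assembly that mm10 represents, with 250 bases before the start site and 50 from it on, read 5′ to 3′ along the gene. Capitals mark matches on either strand to CCAAT, to TTTGAA and to the GC box GGGCGG, which do not overlap one another in these 4 promoters.
Hmgb2, chr8:57511593-57511892, plus strand: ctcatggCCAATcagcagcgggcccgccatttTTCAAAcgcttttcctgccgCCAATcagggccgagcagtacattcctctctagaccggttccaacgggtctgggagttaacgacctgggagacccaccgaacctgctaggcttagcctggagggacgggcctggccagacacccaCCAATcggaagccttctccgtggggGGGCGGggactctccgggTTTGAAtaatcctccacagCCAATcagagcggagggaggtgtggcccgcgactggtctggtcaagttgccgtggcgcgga
Lbr, chr1:181842352-181842651, minus strand: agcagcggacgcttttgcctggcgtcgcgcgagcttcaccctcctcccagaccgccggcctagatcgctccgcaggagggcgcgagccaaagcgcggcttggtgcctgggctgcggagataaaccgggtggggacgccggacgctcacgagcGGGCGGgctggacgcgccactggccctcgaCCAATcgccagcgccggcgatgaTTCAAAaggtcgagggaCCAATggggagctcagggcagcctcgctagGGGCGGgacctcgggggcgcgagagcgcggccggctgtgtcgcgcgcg
Lmna upstream start site, chr3:88503303-88503602, minus strand: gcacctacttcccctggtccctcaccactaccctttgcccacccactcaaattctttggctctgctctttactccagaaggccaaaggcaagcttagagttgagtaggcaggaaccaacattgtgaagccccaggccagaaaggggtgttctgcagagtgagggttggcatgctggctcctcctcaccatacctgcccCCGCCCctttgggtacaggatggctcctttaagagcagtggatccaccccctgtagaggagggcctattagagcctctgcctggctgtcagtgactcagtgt
Hmga2, chr10:120476420-120476719, minus strand: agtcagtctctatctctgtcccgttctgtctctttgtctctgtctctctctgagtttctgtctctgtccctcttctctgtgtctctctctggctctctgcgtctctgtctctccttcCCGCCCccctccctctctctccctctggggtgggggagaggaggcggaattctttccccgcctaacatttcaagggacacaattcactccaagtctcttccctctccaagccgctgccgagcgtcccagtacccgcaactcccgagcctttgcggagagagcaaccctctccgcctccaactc

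The Hmgb2 promoter held 4 CCAAT matches and 2 TTTGAA matches, and the Lbr promoter held 2 and 1. The Hmga2 promoter held neither, and its upstream part is rich in C and T. Across 14 recorded promoters of the 9 genes, CCAAT was found in 5, TTTGAA in 2 and GGGCGG in 11. The Hmga1 promoters overlap each other and share their GGGCGG matches, which are thus counted at both. Counted by gene, CCAAT was found at 5, TTTGAA at 2 and GGGCGG at 9, which cannot be set against shares of promoters. Over the 21263 promoters of protein-coding genes the shares were 38.2% for CCAAT, 16% for TTTGAA and 46.2% for GGGCGG, and in promoters of genes with a start site peak in both lists GGGCGG was found in 64.1%. A match describes these letters only and shows no binding.

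CpG number varied widely among these promoters. The printed length held 45 CpG at the downstream Hmgb1 start site, 42 at Lbr, 40 at the upstream Hmga1 start site and 29 at the upstream Cbx5 start site. The Hmga2 promoter held 12, the Glb1 promoter 9, and the Lmna promoters 1 and 7. The median was 21 over promoters of genes with a peak in both lists (interquartile range 13 to 29), 9 for genes with one in romidepsin only and 3 for genes with one in neither. Both Lmna start sites, the Glb1 start site and the downstream Cbx5 start site, whose promoter held 8, thus had CM peaks with fewer CpG than the lower quartile of that class. The Hmga2 promoter, with no CM peak, lay just below that quartile as well. The downstream Lmnb2 start site also had no CM peak, and its promoter held 6 CpG.

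Lmnb1 encodes lamin B1, a filament protein of the nuclear lamina. It spans 45.6 kb (chromosome 18, 56707813 to 56753424). With romidepsin 16 peaks covered 79.1% of its window, against 3 peaks and 6.34% in CM. The romidepsin peak at the lower-coordinate end of the gene ran from 56704292 to 56721721 over 17430 bp (fold 3.66), and the CM peak there ran from 56707108 to 56709701 over 2594 bp (fold 6.24). The romidepsin peak was 6.72 times as long. The long romidepsin peak also held the second CM peak, of 593 bp inside the gene. A further CM peak of 975 bp lay beyond the other end of the span, under a romidepsin peak of 4223 bp that reached over that end. Between these, an 11163 bp romidepsin peak inside the gene (56729354 to 56740516, fold 3.17) had no CM peak under it, and romidepsin peaks together covered 82.7% of the gene span itself, against 5.44% in CM.

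Lmnb2 encodes lamin B2 (chromosome 10, 80901363 to 80918245). Its start site peak was 4965 bp long with romidepsin (80916020 to 80920984, fold 3.93) and 952 bp in CM (80917453 to 80918404, fold 5.66), shorter than the longest CM start site peak at any other of the 9 genes. The downstream start site, at 80906412, had a weak romidepsin peak of 587 bp whose edge lay 68 bp away (fold 2.28), and no CM peak. In all, the window held 11 romidepsin peaks over 20.2 kb, against 3 CM peaks over 2.68 kb. Beyond its downstream end, the strongest peak of the window in each list (fold 4.53 with romidepsin, 6.15 in CM) lay over the neighbours Timm13 and Tmprss9. A 19076 bp romidepsin peak entering the upstream flank reached Gadd45b, and its CM partner lay outside the window.

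Lmna encodes lamins A and C, the lamins of differentiated cells (chromosome 3, 88481148 to 88509932). It had 15 romidepsin peaks over 41.5 kb and 2 CM peaks over 1.85 kb, a ratio of 22.4 and the highest among the 9 genes with CM peaks. Romidepsin peaks covered 94.2% of the gene span, against 6.44% in CM. The 2 CM peaks lay one at each recorded start site. At the upstream recorded site, 88503352, the peak was 8071 bp with romidepsin (fold 3.45) and 1122 bp in CM (fold 4.77). The edge of the CM peak lay 32 bp downstream of that site, and the RefSeq span extends upstream of the site to 88509932. At the downstream site, 88493312, it was 11948 bp with romidepsin (fold 3.73) and 732 bp in CM (fold 4.22). A further romidepsin peak of 7338 bp (88507844 to 88515181, fold 3.32) lay over the upper end of the RefSeq span, where CM had none.

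Lbr encodes the lamin B receptor (chromosome 1, 181815315 to 181842401). Its only CM peak was at the start site (181840921 to 181843374, 2454 bp, fold 6.24), and the romidepsin peak there was 9241 bp (181838046 to 181847286, fold 3.91). The next CM peak was 97.2 kb from it on the lower side and 176 kb on the higher side. With romidepsin 8 further peaks had no CM peak under them, and the strongest of these was 3694 bp long and lay upstream (181850014 to 181853707, fold 3.82). No peak in either list lay over the last part of the gene or the flank beyond it: romidepsin peaks covered 29.2% of the span, against 5.47% in CM.

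The HMGA genes encode small architectural proteins that bind AT-rich DNA, and their loci stood at opposite ends of the range. Hmga1 (chromosome 17, 27556574 to 27563672) had the longest CM start site peak of the 9 genes. Its romidepsin peak was 14441 bp (27553896 to 27568336, fold 4.68) and its CM peak 4800 bp (27554558 to 27559357, fold 6.42). The romidepsin peak covered the whole gene, reached its neighbour AI413582 and held 2 CM peaks, of 4800 and 1827 bp. Within its own list, the romidepsin fold stood at percentile 97.4 of all genes with a start site peak, and the CM fold at percentile 75.6 of its list. Peaks covered 87.0% of the Hmga1 window with romidepsin and 26.6% in CM, the highest share in each list among the 10 genes.

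Hmga2, by contrast, spans 115 kb (chromosome 10, 120361268 to 120476469) and had 2 romidepsin peaks and no CM peak. One lay at the start site (120474198 to 120478293, 4096 bp, fold 3.05, −log10 q 3.38) and the other of 1283 bp inside the gene (120428550 to 120429832, fold 2.67). The start site fold stood at percentile 13.9 of its list. Seen from the start site peak, that second peak was 44.4 kb away and the next romidepsin peak on the other side 73.6 kb away. Among the equal numbers of strongest peaks, which start at a −log10 q of 4.34 in the romidepsin list, Hmga2 had no peak. It was the only one of the 10 genes without a start site peak there, and the share over all genes is not given for that setting.

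Hmgb1 and Hmgb2 encode DNA-bending proteins, of which extracellular HMGB1 acts as an alarm signal. Hmgb1 (chromosome 5, 149046702 to 149053057) had 1 peak in each list. It was 5455 bp with romidepsin (149048969 to 149054423, fold 3.94) and 2871 bp in CM (149050760 to 149053630, fold 6.14), and it held both recorded start sites. The length ratio of 1.90 was the lowest of the 9 genes. No other romidepsin peak lay within the window, and the nearest were 15.3 kb and 13.0 kb from the edges of this one. Processed copies of Hmgb1 are known elsewhere in the genome, and how reads with several matches were treated is not given in the sources used here.

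Hmgb2 (chromosome 8, 57511843 to 57515999) likewise had 1 CM peak, of 3347 bp (57510533 to 57513879, fold 6.26). The romidepsin peak over it was 9230 bp (57509314 to 57518543, fold 3.69), which covered the whole gene, and 3 further romidepsin peaks lay upstream. Past the start site peak, the next romidepsin peak downstream was 10.2 kb away. The window was covered to 60.7% with romidepsin and to 13.9% in CM, whereas the Hmgb1 window was covered to 20.7% with romidepsin and to 10.9% in CM. The CM peaks of the 2 paralogues were of similar length, and the romidepsin peak was longer at Hmgb2.

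Cbx5 encodes heterochromatin protein 1 alpha, which binds methylated H3K9 (chromosome 15, 103191546 to 103239904). Next to its upstream start site lies Hnrnpa1, which encodes an RNA-binding protein. The romidepsin peak at the upstream start site was the longest of all 87, 27785 bp (103235552 to 103263336, fold 3.81). The CM peak there was 2627 bp (103239283 to 103241909, fold 4.78), a ratio of 10.6 and the highest where the longest CM start site peak of each gene is used. The downstream Lmna start site, with its shorter CM peak, had a higher ratio. The CM peak at the upstream Cbx5 start site also lay over Hnrnpa1. The long romidepsin peak covered Hnrnpa1 and Nfe2, which encodes an erythroid transcription factor. It took in 6 CM peaks, of which the ratio uses only the start site peak. It reached 23484 bp upstream of the Cbx5 start site and 4300 bp into the gene, and the CM peak reached 2057 bp upstream and 569 bp downstream. The longer part thus lay over the neighbours. The downstream start site, 103215352, had a peak of 3595 bp with romidepsin (fold 2.99) and of 559 bp in CM (fold 3.48). Of the 17 romidepsin peaks in the window, 15 had no CM peak under them, and most of these lay inside the gene. Those inside had lengths between 379 and 2198 bp, and the longest of the 15, of 3700 bp, lay in the flank.

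Glb1 (chromosome 9, 114401078 to 114474379) shares its start region with Tmppe, which lies in the same span. The start site peak was 3245 bp with romidepsin (114400327 to 114403571, fold 4.57) and 1509 bp in CM (114400900 to 114402408, fold 6.28). The romidepsin fold stood at percentile 95.3 of its list, but the longest romidepsin start site peak was shorter here than at the other 9 genes. Most of the gene held no peak: 4.39% of its 73.3 kb span was covered with romidepsin and 1.82% in CM. The other strong romidepsin peak, at the edge of the upstream flank (fold 4.38), lay over Crtap and had a CM partner outside the window.

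**Figure D2:**
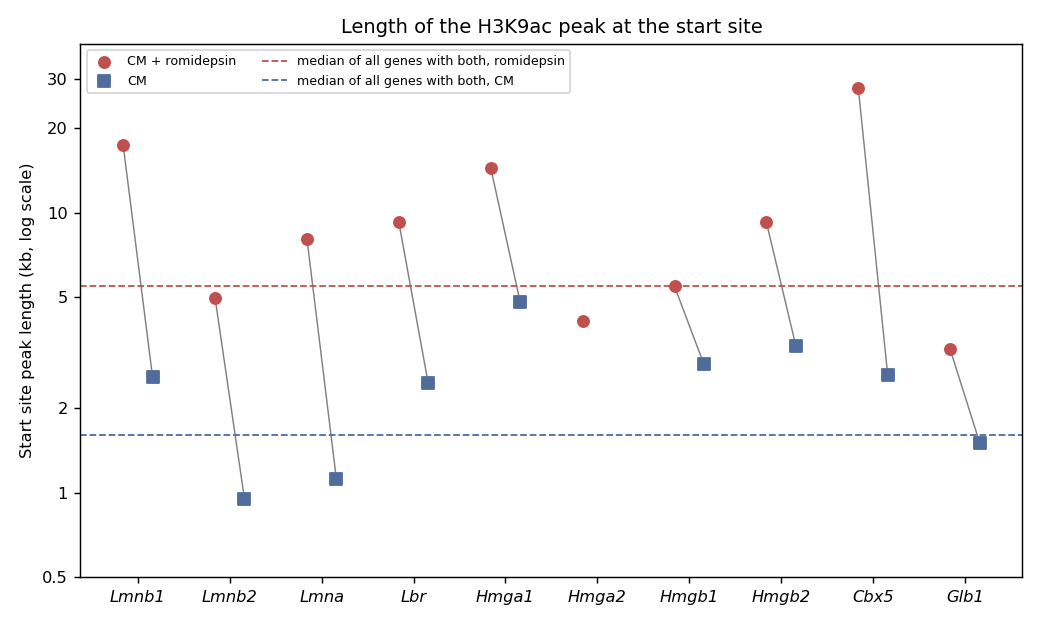
Length in kb (log axis) of the start site peak of each gene in CM plus romidepsin (red circles) and in CM (blue squares), with lines joining the peaks that overlap. For Lmna the upstream start site is shown. Dashed lines are the medians over all genes with such a peak in both lists, 5490 bp with romidepsin and 1600 bp in CM. Each of the 9 joined pairs is longer with romidepsin, least so at Hmgb1 and most at Cbx5, where the romidepsin peak also takes in further CM peaks.

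At the 9 genes with a CM start site peak, the overlapping romidepsin peak was at least 2 times longer at 8, all but Hmgb1. Over all 10976 genes with such a pair the share was 89.7%, so that the count of members was near that of genes in general. The median length was 9230 bp with romidepsin and 2590 bp in CM, against 5490 bp with romidepsin and 1600 bp in CM over all such genes. The median ratio was 3.77, against 3.37 over all. All 19 CM peaks of the set overlapped a romidepsin peak, and 18 lay wholly inside one, so that a longer partner follows from the overlap. Over the whole CM list 99.9% overlapped one.

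**Figure D3:**
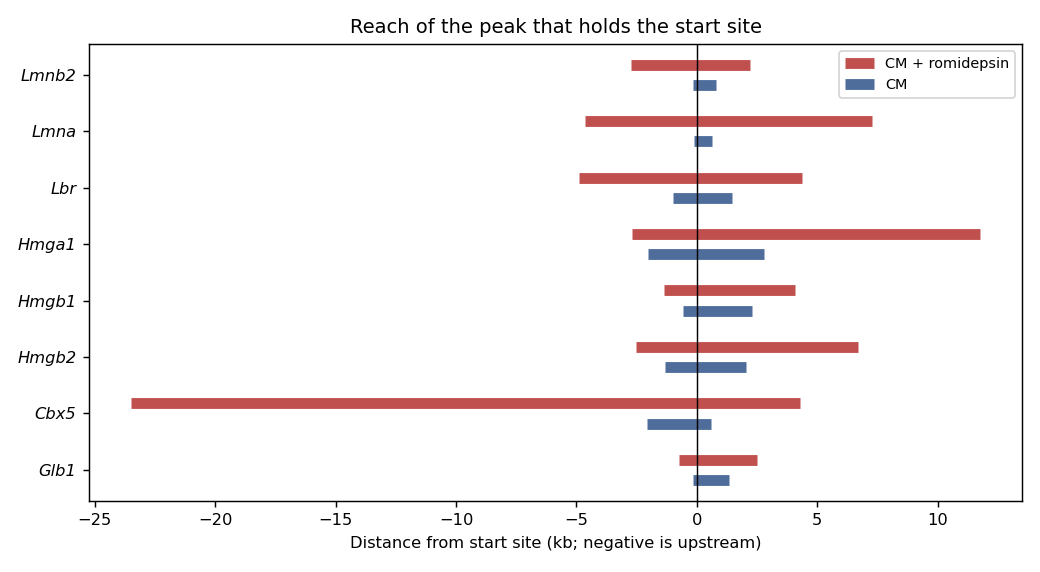
Reach of the peak holding the start site, in kb upstream (negative) and downstream, in CM plus romidepsin (red) above CM (blue), for the 8 genes with a recorded strand and a start site inside both peaks. For Lmna the downstream start site is shown. At Hmga1 the longer reach with romidepsin is mostly downstream, and at Cbx5 mostly upstream over Hnrnpa1 and Nfe2.

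Romidepsin peaks reached farther than CM peaks on both sides of the start site. At the 8 genes with a recorded strand and a start site inside both peaks, the median reach upstream was 2710 bp with romidepsin and 773 bp in CM, and the median reach downstream was 4330 bp with romidepsin and 1400 bp in CM. Over all 7837 such genes the median reach upstream was 1920 bp with romidepsin and 523 bp in CM, and downstream it was 3270 bp with romidepsin and 1080 bp in CM. At Hmga1 nearly all of the difference in length was on the downstream side, where the peak reached 11762 bp with romidepsin and 2783 bp in CM. Its upstream reach was 2678 bp with romidepsin and 2016 bp in CM. Lmna, at its downstream start site, reached 4660 bp upstream with romidepsin and 122 bp in CM. Glb1 reached 751 bp upstream with romidepsin and 178 bp in CM.

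**Figure D4:**
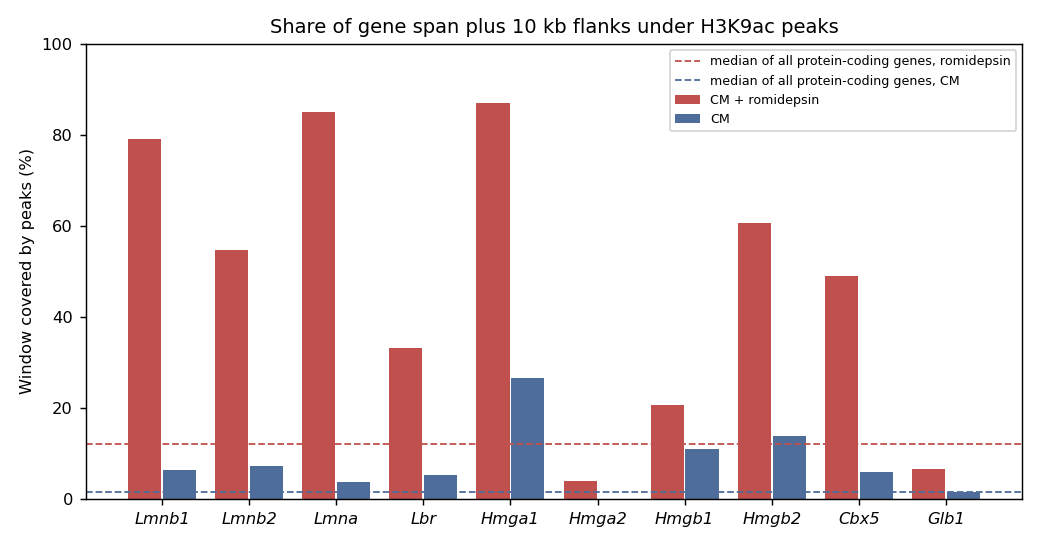
Share of each gene's span plus 10 kb flanks that lies under peaks, in percent, in CM plus romidepsin (red bars) and CM (blue bars). Dashed lines are the medians over all protein-coding genes, 12.0% with romidepsin and 1.46% in CM. Hmga1, Lmna and Lmnb1 are covered to between 79.1% and 87.0% with romidepsin, and Hmga2 and Glb1 lie below the romidepsin line.

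Together the 10 windows held 573 kb, of which 218 kb (38.1%) lay under romidepsin peaks and 30.2 kb (5.27%) under CM peaks, a ratio of 7.22. The per-gene median was 52.0% with romidepsin and 6.15% in CM, against 32.2% with romidepsin and 4.72% in CM over all genes with a start site peak in both lists. The 10 include Hmga2, which is outside that class, and over all protein-coding genes the medians were 12.0% with romidepsin and 1.46% in CM. The spread was wide, between 3.98% at Hmga2 and 87.0% at Hmga1 with romidepsin. Where only peaks with a fold of at least 4 were kept, the ratio turned round to 0.887, with 5 romidepsin and 13 CM peaks left. The same cut falls unevenly on these lists, whose median folds were 2.64 with romidepsin and 5.04 in CM. Most of the romidepsin peaks were short and of low fold: 69 of 87 had no CM peak under them, with a median length of 791 bp and a median fold of 2.58. The 18 that overlapped a CM peak had a median of 5210 bp and a fold of 3.82. These 18 were 20.7% of the set (exact Clopper-Pearson 95% interval 12.7 to 30.7, which covers counting error only, and peaks of 1 gene are not independent), and the share was 12.9% over the whole romidepsin list. Peaks of the first kind numbered 14 at Lmnb1, 13 at Lmna and 15 at Cbx5, and Hmgb1 had none.

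Related genes outside the set were mostly marked in both lists as well. Of 20 other nuclear envelope and lamina genes, 20 had a start site peak with romidepsin and 18 in CM. Syne3, which encodes a nesprin that links the nucleus to the cytoskeleton, had a romidepsin start site peak of 29.9 kb (chromosome 12, 104985674 to 105015592, fold 3.87) and no CM peak at a start site, although its window held 3 CM peaks. Plpp7 had a romidepsin peak only (727 bp, fold 2.89). The longest romidepsin start site peaks of this list were at Nrm and Tor1aip1. Nrm, which encodes the membrane protein nurim, had 21.5 kb with romidepsin and 0.821 kb in CM, and its romidepsin peak reached Mdc1 and Ppp1r18. Tor1aip1, which encodes a lamina-associated protein, had 20.5 kb with romidepsin and 5.27 kb in CM, and its romidepsin peak reached Tor1aip2.

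Of 16 other heterochromatin and histone chaperone genes, 16 had a start site peak in each list. Chaf1a, a subunit of chromatin assembly factor 1, had a peak of 30.7 kb with romidepsin and 1.29 kb in CM, and Trim28, a corepressor that recruits heterochromatin proteins, had 20.1 kb with romidepsin and 2.76 kb in CM. The long peak at Chaf1a also reached Mpnd and Sh3gl1, and that at Trim28 reached Chmp2a, Gm31649 and Ube2m. Of 18 other lysosomal enzyme genes, mostly of glycosidases, 18 had one in each list. Hexa, which encodes a hexosaminidase subunit, had 24.5 kb with romidepsin and 3.15 kb in CM, and Galns, a sulfatase gene, had 13.5 kb with romidepsin and 1.88 kb in CM. The romidepsin peak at Hexa also reached Tmem202, and that at Galns reached Aprt and Cdt1. In this list the romidepsin peak was at least 2 times longer at all 18 genes, where Glb1 itself had a ratio of 2.15. Over all genes with a start site peak in both lists the share was 89.7%, so this count was near that of genes in general.

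Of 13 high mobility group genes outside the set, 12 had a start site peak with romidepsin and 9 in CM. Hmgb3, a paralogue of Hmgb1 and Hmgb2 on chromosome X, had a romidepsin peak only (71555042 to 71557534, 2.49 kb, fold 2.72), as did the nucleosome-binding genes Hmgn5 (2.12 kb, fold 3.08) and Hmgn3 (1.21 kb, fold 2.95). Hmgb4, a germ cell gene, had no start site peak in either list. Hmg20b, a subunit of a deacetylase complex, had 29.6 kb with romidepsin and 1.08 kb in CM, in a peak that also reached Fzr1, Gipc3, Mfsd12 and 4930404N11Rik. Ubtf, which encodes a factor of ribosomal RNA transcription, had 13.7 kb with romidepsin and 5.09 kb in CM. Limited to equal numbers of peaks by −log10 q, 18 of the 20 nuclear envelope genes and 14 of the 16 heterochromatin genes had a start site peak with romidepsin. So did 9 of the 13 high mobility group genes and 17 of the 18 lysosomal enzyme genes. Only the romidepsin list is shortened in that setting, and the share over all protein-coding genes is not given for that setting. In the full lists the share was 63.0% with romidepsin and 50.2% in CM.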

How the data were processed

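H3K9ac was mapped by ChIP-seq in 1 library of CM plus romidepsin and 1 of CM, grouped by the titles in the labels. Per the submitters' processing notes, Bowtie2 (2.4.4), MACS2 (2.2.7.1) and deepTools (3.5.1) were used with mm10. Settings, read filters and any use of an input control are not given in the sources used here. Every broad peak carries values that the authors deposited: a score (10 times the −log10 q-value, rounded down, checked on all peaks to within 1), a fold enrichment, which is a ratio to local background, and p-values and q-values as −log10. The number of reads is unknown.

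Peaks were read 1-based and overlapped by at least 1 bp with RefSeq genes of GRCm38.p6. Start sites came from RefSeq promoter records for 17492 of 21887 protein-coding genes and for 9 of the 10 members. Both span ends were used for the others, which can count a peak at a gene's far end. Where several peaks met a start site, the longest was used, and a CM peak was paired with the longest romidepsin peak over it. Strand, exons and untranslated regions of a peak were not analysed here. Of 67 related genes all were matched, H2afy and H2afy2 by older symbols. The members and lists were chosen with earlier results of these data known. Named genes were all members, and of each related list up to 3 with a start site peak in romidepsin only, those with none, and the 2 with the longest romidepsin peak, besides neighbours under member peaks. Results for 1 marker gene are not reported here by name. No test was run. Interval handling was tested on simulated data (Python 3.11.15, pandas 2.3.3, scipy 1.17.1). Alternatives covered flanks, thresholds, merging, start windows and overlap.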

Additional observations from a re-analysis of the deposited data

How the results depend on the processing

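A number of genes, peaks or bases was taken as stable where it stayed within 1.5 times the reported value, which held for 80 of 112 recomputed values. Some of the 80 could not move. Equal numbers of strongest peaks leave the CM list whole, and every CM peak of the set had a fold above 3. The CM values were therefore fixed in these settings, and the 80 is not a measure of stability. Without flanks, romidepsin peaks covered 122341 bases with 53 peaks and CM peaks 16241 bases with 12 peaks, and 12 CM peaks were shared. At a −log10 q of at least 5, romidepsin kept 15 peaks over 107872 bases and CM 8 peaks over 19927 bases, 8 of them shared. At a −log10 q of at least 10 every number of genes, peaks, shared peaks and covered bases was 0 in both lists, so no ratio or length could be given. At a fold of at least 3 the romidepsin peaks numbered 33. At a fold of at least 4 there were 5 over 24146 bases, at 3 genes and at the start site of 2. CM kept 13 peaks there, 4 CM peaks were shared, and the ratio of covered bases was 0.887. Folds differ in scale between the lists, so that ratio sets unlike parts of them side by side. With equal numbers of strongest peaks romidepsin kept 21 peaks over 133707 bases, the ratio was 4.43, and 2 markers of other cells had a start site peak. Merging peaks under 1 kb apart left 34 romidepsin peaks. Where the overlap had to be at least 50% of each peak, 1 CM peak was shared, because the romidepsin peaks are longer. Related lists and the number of widened peaks were recomputed only with equal numbers of strongest peaks, and applying that setting to them was decided after seeing the data. No paired analysis was possible because each condition had 1 library, and for the same reason no library could be left out. Depth is unknown and limits any reading of absent peaks.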
